A study of Rattus norvegicus with 18 samples.

Results

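The genes described here are 41 enzymes and binding proteins of DNA methylation and histone modification, followed in the extensor digitorum longus muscle of the rat. They were listed by gene symbol, with earlier results of these data known, and fall into 9 classes. A gene was measured where a probe set of the array (the group of probes summarised to 1 value) carried its symbol and no other. This held for 34 of the 41, and where a gene had several such probe sets the one of highest mean was used. Of these 34, 33 passed the filter on low signal and were tested among 12642 genes, out of 16856 distinct symbols. Dnmt3b, a de novo DNA methyltransferase, was below the filter. Suz12, Kmt2a, Kmt2c, Setdb1 and Sirt1 had no probe set of their own here. Kmt2d and Setd1a were present only in probe sets that name several symbols. These 7 were not analysed here.

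DNA methyltransferases place methyl groups on the cytosine of CpG dinucleotides, TET dioxygenases oxidise them toward removal, and methyl-CpG binding proteins recruit repressors to them. On histones, methyltransferases and acetyltransferases write marks that demethylases and deacetylases take off, with acetylation and H3K4 methylation found at active promoters and H3K9 and H3K27 methylation at silent ones. In skeletal muscle the class IIa deacetylases Hdac4 and Hdac5 hold back the MEF2 transcription factors, and Polycomb repressive complex 2 restrains the muscle programme in precursor cells.

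The animals were 18 adult Sprague-Dawley F2 females, grandchildren of F0 males that had eaten chow or a high-fat diet. Each female herself ate chow or a high-fat diet (42/45% of energy from fat) for 12 weeks. Groups are written as the diet of the grandfather, then that of the female: chow/chow (n = 5), chow/high-fat (n = 5), high-fat/chow (n = 4) and high-fat/high-fat (n = 4). All groups shared strain, sex, muscle and generation. The number of founders and litters is not given in the sources used here, so females of 1 lineage may be related to each other, and p-values measure the spread between these 18 animals. RNA of each muscle was hybridised to 1 whole-transcript array, and values are log2(intensity + 16) after quantile normalization. Every difference is a high-fat mean minus a chow mean on this log2 scale, with its standard error (SE), and adjusted p-values come from limma with Benjamini-Hochberg adjustment over all 12642 genes.

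The promoter sequences of 35 of the 41 genes were found in RefSeq (assembly GRCr8, 250 bases before to 50 after the start). They were rich in CpG dinucleotides, the substrate of the DNA methyltransferases listed here: the median was 26 per promoter (range 3 to 56), against 7 over 27457 promoters of the same length. The 250 bases before the start are shown for Kdm2a and Hdac2, the members of smallest p in the grandpaternal comparison, and for Dnmt1, the member of smallest p among those with higher values, with each CpG in capitals. No methylation was measured, so the capitals mark sequence only.
Kdm2a: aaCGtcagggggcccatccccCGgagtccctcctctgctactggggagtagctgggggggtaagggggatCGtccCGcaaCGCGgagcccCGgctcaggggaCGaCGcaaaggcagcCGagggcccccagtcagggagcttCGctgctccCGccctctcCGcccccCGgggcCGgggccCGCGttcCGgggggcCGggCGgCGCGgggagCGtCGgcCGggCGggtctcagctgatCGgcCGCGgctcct
Hdac2: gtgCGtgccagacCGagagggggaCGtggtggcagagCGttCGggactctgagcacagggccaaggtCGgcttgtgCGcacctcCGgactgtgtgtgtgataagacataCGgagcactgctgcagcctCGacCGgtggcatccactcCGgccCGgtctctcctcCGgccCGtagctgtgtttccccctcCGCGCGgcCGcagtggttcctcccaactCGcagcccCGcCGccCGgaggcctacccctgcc
Dnmt1: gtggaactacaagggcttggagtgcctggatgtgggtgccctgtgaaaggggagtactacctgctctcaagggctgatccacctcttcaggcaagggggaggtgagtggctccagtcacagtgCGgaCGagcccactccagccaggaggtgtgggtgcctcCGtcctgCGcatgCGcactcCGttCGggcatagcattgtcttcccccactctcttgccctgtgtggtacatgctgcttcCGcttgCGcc
The Kdm2a stretch (chr1:211110216-211110465, minus strand) held 29 CpGs. That of Hdac2 (chr20:42102877-42103126, plus strand) held 23, and that of Dnmt1 (chr8:27762842-27763091, minus strand) held 9. On both strands, the GC box GGGCGG was found in 27 of the 35 member promoters (77.1%), against 34.9% of all promoters. The ETS motif CCGGAAG stood in 2 (5.71% against 9.22%), the E-box CACGTG in 4 (11.4% against 6.65%) and the TATA box TATAAA in 1, that of Tet1 (2.86% against 14.3%). A match is a stretch of letters and not a measured binding site.

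Averaged over both diets of the females, 0 of the 33 tested enzymes passed an adjusted p of 0.05 for the diet of the grandfather, where 0.198% of all genes did (25 genes). The differences were small: all lay between -0.24 and 0.11. Values were on balance lower in the high-fat lineage, in 23 of the 33 members (69.7%), against 51.2% of all genes tested. The median member difference was -0.055, against -0.0027 over all genes. At an unadjusted p under 0.05 there were 7 members (21.2%, against 14.6% of all genes): Dnmt1 was higher, and Kdm2a, Hdac2, Hdac4, Kdm6b, Eed and Ep300 were lower. The lower direction held 18.2% of members against 6.89% of all genes, and the higher direction 3.03% against 7.75%. Classes that place, remove or read DNA methylation had values on both sides of 0 or above it. All 3 measured members of Polycomb repressive complex 2 and the 2 measured of 6 in the H3K4 and H3K36 family lay below 0. So did all 3 measured H3K9 methyltransferases and all 4 acetyltransferases. The other histone classes were mixed, with 6 of 7 demethylases and 3 of 5 deacetylases below 0. A further Eed probe set gave 0.03. On chow alone 1 gene lay above 0 in each of the Polycomb, H3K9 and acetyltransferase classes. Some of the averaged values below 0 were small against their SE, such as -0.01 for Ehmt2 (SE 0.068). Those signs belong to the quantile-normalized scale. The table as deposited had all genes shifted by 0.059. In it 11 of 33 members lay below 0 and 21 below the median of all genes. There 3 of 33 members had an unadjusted p under 0.05, against 2062 of 12642 genes. With arrays centred on their medians 4 of 33 members did, against 1893 of 12642 genes. In both settings the share was smaller among the members than among all genes.

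**Figure D1:**
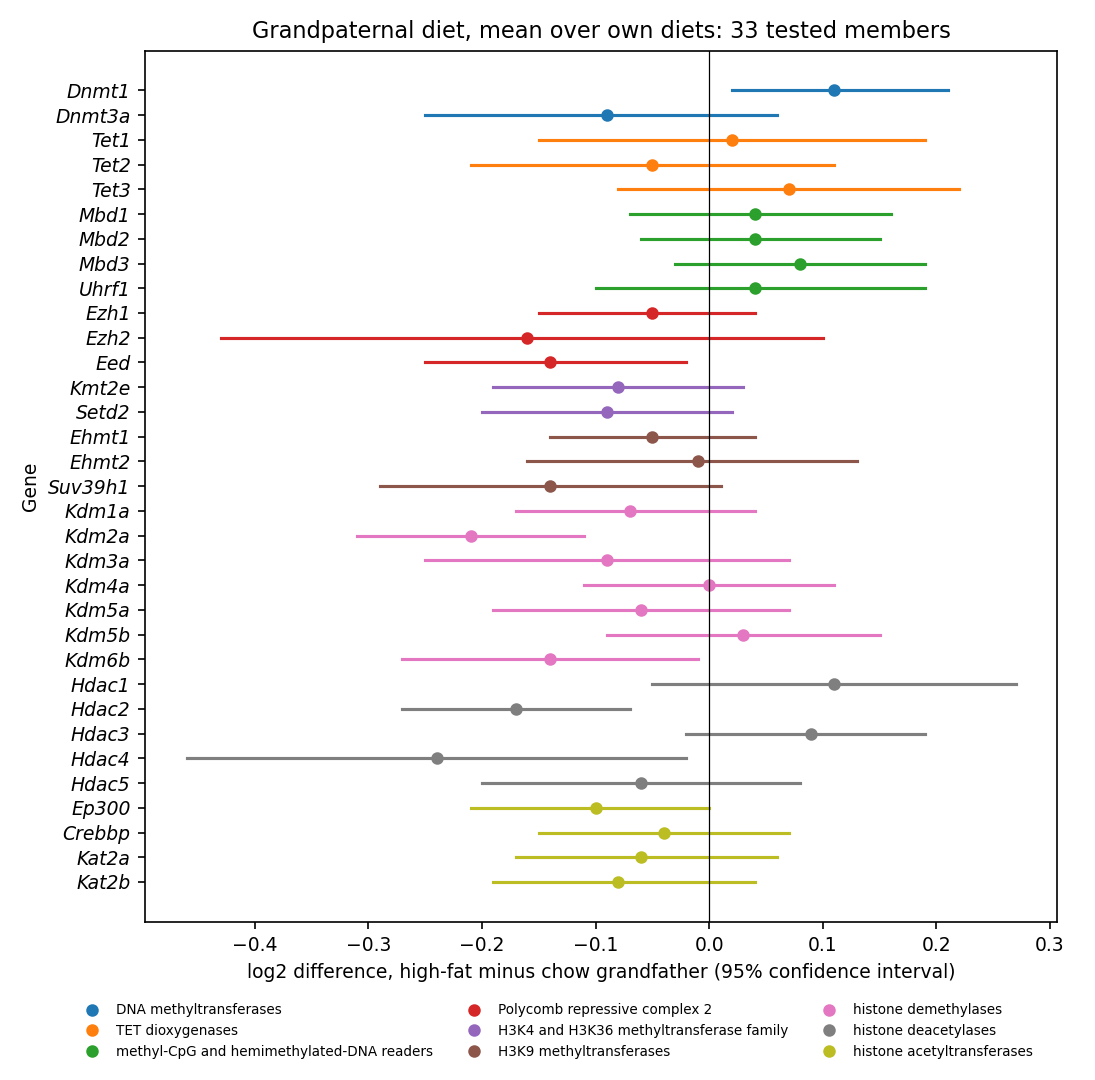
The log2 difference of the high-fat minus the chow lineage, averaged over both diets of the females, is plotted for the 33 tested members by class, with 95% confidence intervals. Points run from -0.24 (Hdac4) to 0.11 (Dnmt1 and Hdac1), and the interval of Kdm2a (-0.31 to -0.11) lies farthest from 0.

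Among the DNA methyltransferases, Dnmt1, which copies methylation onto the new strand after replication, had log2 intensities of 6.83, 6.93, 7.01, 6.92 and 6.87 in chow/chow and 6.86, 6.82, 7.05, 6.97 and 6.92 in chow/high-fat females. In the high-fat lineage it stood at 6.98, 7.19, 7.05 and 7.01 on chow and 6.99, 7.07, 7.03 and 6.93 on the high-fat diet. All 8 animals of the high-fat lineage lay above the mean of the chow-lineage group on their own diet, but the ranges of the groups overlapped. Members described by animal were picked for small p in these same comparisons. Counts of animals above or below a mean, here and below, are therefore description and no further support. The same count over all genes was not computed. The averaged difference was 0.11 (SE 0.045, 95% confidence interval 0.02 to 0.21), a ratio of 1.08, with an adjusted p of 0.254 by limma. It was 0.14 on chow (SE 0.064) and 0.08 on the high-fat diet (SE 0.064). Dnmt1 is most active in dividing cells, and 12 markers of proliferating cells were measured beside it. Their summed intensity ran from 528 to 570 in chow/chow and from 581 to 605 in high-fat/chow females, without overlap, and from 497 to 637 and 543 to 596 in the high-fat-fed groups of the chow and high-fat lineage. Over all single genes, 1.53% were higher without overlap on chow, but no such share was computed for sums of several genes. Aurkb, Ccnb1, Cdk1 and Rrm2 were below the filter. Of the 8 tested markers 5 were higher and 3 lower on average, with a median of 0.065. On chow 5 were also higher and 3 lower, from -0.14 to 0.22, with a median of 0.03. Their part in the Dnmt1 values was not tested.

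Dnmt3a, a de novo methyltransferase, read 8.00, 7.88, 8.03, 7.63 and 7.68 in chow/chow and 7.67, 7.67, 7.98, 8.13 and 7.90 in chow/high-fat animals. Its values were 7.76, 7.68, 7.66 and 7.86 in high-fat/chow and 7.73, 7.91, 7.86 and 7.65 in high-fat/high-fat animals. The highest readings were in the chow lineage, and the values of the high-fat lineage (7.65 to 7.91) lay inside its range. The difference was -0.09 (SE 0.072, adjusted p = 0.562 by limma). Dnmt3b ranged only from 4.36 to 4.85 over all animals, below the filter at 5.28, with a difference of 0.07.

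The 3 TET dioxygenases, which turn 5-methylcytosine into 5-hydroxymethylcytosine and further products, had differences between -0.05 and 0.07. Tet2 stood at 9.23, 8.92, 9.08, 9.21 and 9.22 in chow/chow and 9.39, 9.10, 9.02, 9.24 and 9.23 in chow/high-fat females. In the high-fat lineage it read 8.99, 9.16, 9.11 and 8.91 on chow and 8.93, 8.97, 9.50 and 9.34 on the high-fat diet. The highest and some of the lowest readings both fell in the high-fat/high-fat group, and the difference was -0.05 (SE 0.077).

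Tet3 gave 6.63, 6.86, 6.83, 6.60 and 6.82 in chow/chow and 6.93, 7.06, 7.05, 6.76 and 6.69 in chow/high-fat animals. The high-fat/chow values were 6.76, 6.97, 6.63 and 7.13, and the high-fat/high-fat values 7.0, 6.86, 7.02 and 6.78. All 4 groups overlapped, and the averaged difference was 0.07 (SE 0.072). For Tet1 it was 0.02 (SE 0.08). The smallest adjusted p of the class was 0.699 by limma.

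All 4 readers of DNA methylation had slightly higher values in the high-fat lineage, between 0.04 and 0.08, and none passed the test (smallest adjusted p 0.501 by limma, Mbd3). Mbd2, a methyl-CpG binding subunit of the NuRD complex, read 10.46, 10.61, 10.54, 10.60 and 10.57 in chow/chow and 10.37, 10.70, 10.43, 10.59 and 10.51 in chow/high-fat females. It read 10.71, 10.49, 10.57 and 10.75 in high-fat/chow and 10.50, 10.52, 10.56 and 10.54 in high-fat/high-fat females. The high-fat/high-fat values were tightly grouped inside the range of chow/high-fat, and the difference was 0.04 (SE 0.05).

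Mbd3, the NuRD subunit with little affinity for methylated DNA, had values of 9.96, 9.79, 9.91, 9.83 and 9.89 in chow/chow and 9.84, 10.12, 9.84, 9.93 and 10.00 in chow/high-fat animals. Those of the high-fat lineage were 10.01, 9.82, 9.98 and 10.14 on chow and 10.02, 10.09, 9.89 and 9.96 on the high-fat diet. The stretch from 9.89 to 9.96 lay within the range of all 4 groups, and the difference was 0.08 (SE 0.052). Uhrf1, which brings Dnmt1 to hemimethylated DNA, had a low signal (5.25 to 5.78) and a difference of 0.04 (SE 0.068). Mbd1 also differed by 0.04 (SE 0.055).

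Polycomb repressive complex 2 methylates H3K27, with Ezh1 or Ezh2 as its catalytic subunit and Eed as the subunit that binds the finished mark. Eed read 8.13, 8.03, 8.30, 8.10 and 8.00 in chow/chow and 8.03, 8.12, 8.22, 8.17 and 8.18 in chow/high-fat females. In the high-fat lineage its values were 7.99, 7.95, 7.89 and 8.19 on chow and 8.05, 7.86, 8.08 and 7.91 on the high-fat diet. Of the 8 animals of that lineage 7 lay below the mean of the chow-lineage group on their own diet, though every group overlapped the others. The difference was -0.14 (SE 0.054, 95% confidence interval -0.25 to -0.02, adjusted p = 0.241 by limma). A further probe set for Eed gave 0.03 (SE 0.053), so the lower values belong to 1 of the 2 probe sets.

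Ezh2 had the widest spread between animals of all members, with a standard deviation of 0.3 within groups against a median of 0.11 over members. Its values were 7.29, 7.38, 7.68, 7.69 and 7.58 in chow/chow and 7.90, 7.14, 7.89, 7.73 and 7.39 in chow/high-fat females. They were 7.35, 7.99, 7.60 and 7.28 in high-fat/chow and 7.48, 6.82, 7.61 and 7.11 in high-fat/high-fat females. Averaged over diets the difference was -0.16 (SE 0.13), with overlapping groups. It was -0.36 on the high-fat diet (SE 0.18, adjusted p = 0.4 by limma) and 0.03 on chow (SE 0.18), and the test of that change gave an adjusted p of 0.783. Ezh1, the catalytic subunit of resting tissues, differed by -0.05 (SE 0.044).

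Of the family that methylates H3K4 and H3K36, Kmt2e and Setd2 were measured. Setd2, which places trimethylation on H3K36 along transcribed genes, read 9.46, 9.47, 9.54, 9.41 and 9.36 in chow/chow and 9.58, 9.38, 9.41, 9.45 and 9.35 in chow/high-fat animals. Its readings were 9.58, 9.35, 9.18 and 9.31 in high-fat/chow and 9.32, 9.34, 9.41 and 9.29 in high-fat/high-fat animals. Of the high-fat lineage 7 of 8 lay below the mean of the matching chow-lineage group, with overlap in both diets, and the difference was -0.09 (SE 0.052, adjusted p = 0.414 by limma).

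Kmt2e, a relative of the H3K4 methyltransferases with no established catalytic activity, stood at 9.04, 8.93, 9.11, 8.90 and 8.92 in chow/chow and 9.10, 9.18, 9.14, 9.02 and 9.02 in chow/high-fat animals. It stood at 9.10, 8.93, 8.82 and 8.89 in high-fat/chow and 8.93, 8.87, 8.95 and 9.14 in high-fat/high-fat animals. The groups overlapped, with a difference of -0.08 (SE 0.052).

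Methylation of H3K9 marks silent chromatin. Suv39h1, a trimethylating enzyme of constitutive heterochromatin, had values of 7.08, 6.85, 7.21, 7.09 and 7.02 in chow/chow and 7.06, 7.18, 7.21, 6.92 and 7.13 in chow/high-fat females. Values in the high-fat lineage were 7.22, 6.77, 7.02 and 7.01 on chow and 7.03, 6.58, 6.89 and 6.97 on the high-fat diet. The lowest of all readings, 6.58, was in a high-fat/high-fat animal, and the groups overlapped. The difference was -0.14 on average (SE 0.071, adjusted p = 0.374 by limma), -0.05 on chow (SE 0.1) and -0.23 on the high-fat diet (SE 0.1, adjusted p = 0.321).

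Ehmt1, which with Ehmt2 forms the dimethylating G9a/GLP enzyme of euchromatin, read 7.39, 7.57, 7.53, 7.59 and 7.46 in chow/chow and 7.53, 7.58, 7.71, 7.47 and 7.60 in chow/high-fat females. It read 7.59, 7.50, 7.42 and 7.44 in high-fat/chow and 7.51, 7.54, 7.47 and 7.46 in high-fat/high-fat females. Its difference was -0.05 (SE 0.044) with overlapping groups, and that of Ehmt2 was -0.01 (SE 0.068).

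The histone demethylases held the member of smallest p. Kdm2a, which removes methyl groups from H3K36 and binds unmethylated CpG islands, had log2 intensities of 8.92, 8.90, 8.95, 8.93 and 8.85 in chow/chow and 8.88, 8.97, 8.94, 9.02 and 8.98 in chow/high-fat females. In the high-fat lineage they were 8.99, 8.64, 8.68 and 8.76 on chow and 8.73, 8.71, 8.60 and 8.67 on the high-fat diet. On the high-fat diet all 4 animals of the high-fat lineage lay below all 5 of the chow lineage. On chow 3 of 4 lay below the chow/chow range, and the first animal, at 8.99, lay above it. The averaged difference was -0.21 (SE 0.047, 95% confidence interval -0.31 to -0.11), or 1.16-fold lower, with an adjusted p of 0.0617 by limma, just short of the threshold. It was -0.14 on chow (SE 0.066, adjusted p = 0.56) and -0.28 on the high-fat diet (SE 0.066, adjusted p = 0.101). The chow-fed value rested on single animals: it was -0.22 without high-fat/chow replicate 1 (adjusted p = 0.176) and -0.10 without replicate 2 of that group (adjusted p = 0.783). The difference between these, -0.14 (SE 0.094), had an adjusted p of 0.789.

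Whether Kdm2a passed the threshold turned on single choices. Without high-fat/chow replicate 1 the averaged difference was -0.25, with an adjusted p of 0.00517 by limma. It also passed with array weights (adjusted p = 0.017), an offset of 64 (0.0403), only genes above the 50th percentile (0.0477) and every probe set tested (0.0483). It fell further short with the array median as a covariate (adjusted p = 0.198 by limma). The same held without high-fat/chow replicate 3 (0.167) and without replicate 2 of that group (0.127). In the table as deposited the Kdm2a difference was -0.12 (adjusted p = 0.36), with the median of all genes at 0.059, and on the high-fat diet it was -0.03 there (adjusted p = 0.812), with that median at 0.18. Over all alternatives the averaged difference kept its sign, from -0.25 to -0.12, with adjusted p-values from 0.00517 to 0.36. Each sample title ends in a letter and a number. The number was read as the column of an array plate, which the labels do not state. Within these presumed columns the chow-fed difference was -0.26 in column 5, 0.04 in column 7 and -0.09 in column 9. The high-fat-fed one was -0.35 in column 5 and -0.30 in column 7, while column 9 held no chow/high-fat array. These columns held 1 to 3 arrays of a group.

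Kdm6b, which removes H3K27 methylation, read 8.85, 8.98, 8.86, 8.61 and 8.87 in chow/chow and 8.98, 8.79, 9.15, 8.78 and 8.71 in chow/high-fat females. Its values were 8.47, 8.70, 8.68 and 8.68 in high-fat/chow and 8.83, 8.80, 8.84 and 8.75 in high-fat/high-fat females. All 8 animals of the high-fat lineage lay below the mean of the chow-lineage group on their own diet, with overlap in both diets. The averaged difference was -0.14 (SE 0.062, 95% confidence interval -0.27 to -0.01, adjusted p = 0.309 by limma). The other demethylases, measured in all animals, differed by -0.09 (Kdm3a, SE 0.075), -0.07 (Kdm1a, SE 0.049), -0.06 (Kdm5a, SE 0.063) and 0.03 (Kdm5b, SE 0.056). For Kdm4a the difference rounded to 0 (SE 0.051). Kdm1a acts on mono- and dimethylated H3K4, Kdm5a and Kdm5b on trimethylated H3K4, and Kdm3a on H3K9. Kdm4a acts on H3K9 and H3K36.

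**Figure D2:**
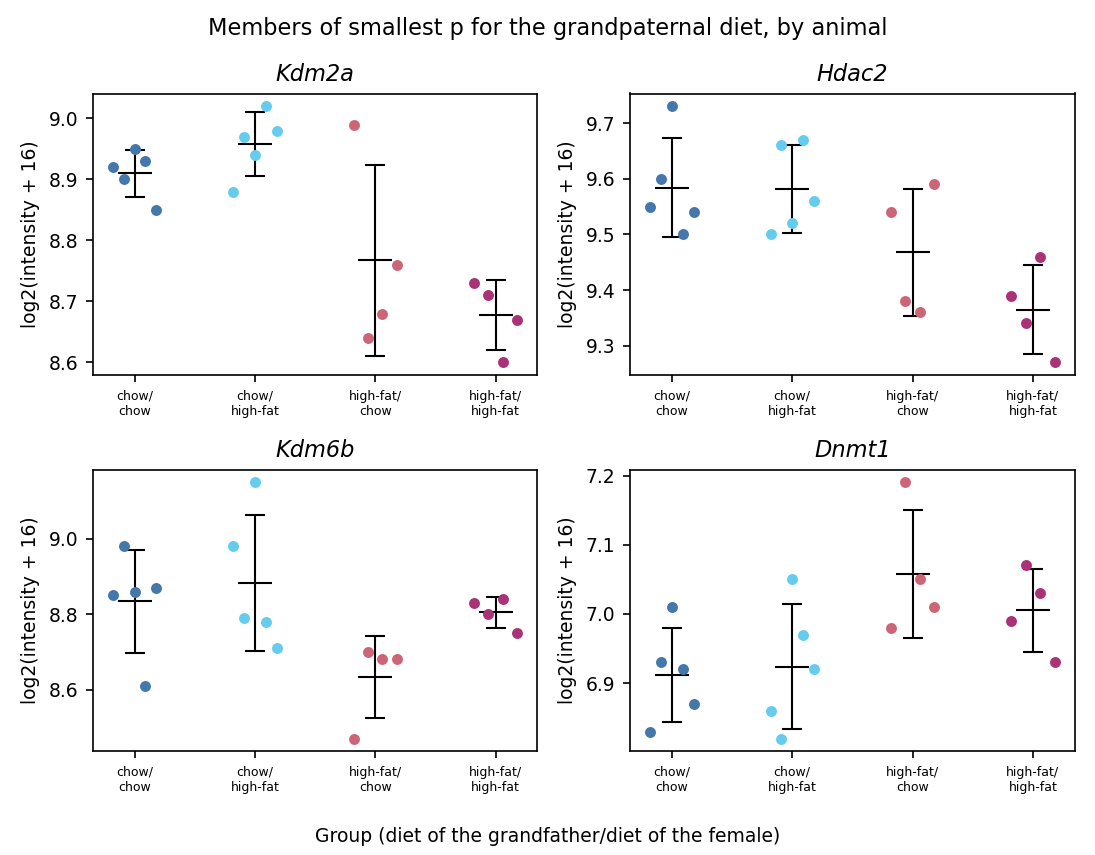
Log2(intensity + 16) of Kdm2a, Hdac2, Kdm6b and Dnmt1 in each of 18 animals, by group of grandpaternal and own diet, with bars at the mean and 1 SD. The 4 high-fat/high-fat points of Kdm2a (8.60 to 8.73) lie below all 5 chow/high-fat points, and high-fat/chow replicate 1 (8.99) stands apart from its group.

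Of the histone deacetylases, Hdac2, a class I enzyme of the NuRD, Sin3 and CoREST complexes, read 9.55, 9.60, 9.73, 9.50 and 9.54 in chow/chow and 9.50, 9.66, 9.52, 9.67 and 9.56 in chow/high-fat animals. It read 9.54, 9.38, 9.36 and 9.59 in high-fat/chow and 9.39, 9.34, 9.46 and 9.27 in high-fat/high-fat animals. All high-fat/high-fat values were below all chow/high-fat values, whereas the chow-fed groups overlapped. The averaged difference was -0.17 (SE 0.049, 95% confidence interval -0.27 to -0.07, adjusted p = 0.122 by limma), with 7 of 8 animals below the matching mean. It was -0.12 on chow (SE 0.069) and -0.22 on the high-fat diet (SE 0.069, adjusted p = 0.174). In the table as deposited the value on the high-fat diet was 0.02, against 0.18 for the median of all genes.

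Hdac4, a class IIa deacetylase that shuttles between nucleus and cytoplasm in muscle fibres, stood at 8.98, 9.16, 9.06, 9.66 and 9.22 in chow/chow and 9.02, 9.31, 8.95, 9.12 and 9.17 in chow/high-fat females. In the high-fat lineage it stood at 9.29, 8.75, 8.75 and 8.74 on chow and 8.85, 9.04, 8.64 and 9.37 on the high-fat diet. Of the high-fat/chow animals 3 lay at 8.74 or 8.75, below all chow/chow values, and replicate 1 lay inside the chow/chow range. The averaged difference was -0.24 (SE 0.11, 95% confidence interval -0.46 to -0.02, adjusted p = 0.302 by limma), and -0.31 without that animal (adjusted p = 0.101, in a range of 0.101 to 0.527 over the alternatives). Without chow/chow replicate 4 it was -0.18 (adjusted p = 0.402 by limma). Leaving out high-fat/high-fat replicate 3 also gave -0.18 (adjusted p = 0.438). Its sign was not the same in every presumed plate column: the averaged value was -0.48 in column 5 and 0.23 in column 7.

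Hdac5, the related class IIa enzyme, read 8.80, 8.78, 8.79, 8.78 and 8.81 in chow/chow and 8.74, 8.71, 8.97, 9.01 and 9.15 in chow/high-fat animals. It read 8.87, 8.72, 8.88 and 9.03 in high-fat/chow and 8.89, 8.82, 8.68 and 8.45 in high-fat/high-fat animals. The chow/chow values spanned only 8.78 to 8.81, a narrower range than in any other group. Averaged over both diets it differed by -0.06 (SE 0.067), made of 0.09 on chow and -0.21 on the high-fat diet. Hdac1 and Hdac3, catalytic subunits of the NuRD and NCoR complexes, differed by 0.11 (SE 0.077) and 0.09 (SE 0.051), and a further Hdac1 probe set by 0.12 (SE 0.057).

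Averaged over both diets, all 4 histone acetyltransferases had lower means in the high-fat lineage, by 0.04 to 0.10, and none passed the test. At each diet 1 of the 4 was higher instead: Kat2a on chow (0.09, SE 0.076) and Crebbp on the high-fat diet (0.01, SE 0.073). Ep300, which acetylates H3K27 at enhancers, had values of 9.43, 9.40, 9.44, 9.39 and 9.31 in chow/chow and 9.43, 9.42, 9.35, 9.42 and 9.37 in chow/high-fat females. Its high-fat-lineage values were 9.31, 9.33, 9.10 and 9.30 on chow and 9.30, 9.14, 9.37 and 9.48 on the high-fat diet. On chow all 4 lay below the matching mean, and 2 of them, at 9.31 and 9.33, lay within the chow/chow range of 9.31 to 9.44. On average the difference was -0.10 (SE 0.048, adjusted p = 0.325 by limma). Its paralogue Crebbp differed by -0.04 (SE 0.051).

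Kat2b, also called PCAF, an acetyltransferase that acts with MyoD, stood at 10.08, 10.27, 10.09, 10.26 and 10.09 in chow/chow and 10.10, 10.48, 10.19, 10.21 and 10.26 in chow/high-fat females. It stood at 10.23, 10.02, 10.16 and 10.14 in high-fat/chow and 10.10, 9.99, 10.15 and 10.20 in high-fat/high-fat females. The groups overlapped, with a difference of -0.08 (SE 0.055).

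Set out by the diet of the females, the grandpaternal comparison gave 0 calls among the members at either diet. On chow, 0.00791% of all genes passed an adjusted p of 0.05, and 18 of the 33 members lay below 0 (54.5%, against 50.5% of all genes). The median was -0.019, against -0.0017 over all genes. At an unadjusted p under 0.05 there were 4 members (12.1%, against 8.75%), Dnmt1 above 0 and Hdac4, Kdm2a and Kdm6b below, and none had groups without overlap (1.75% of all genes had lower and 1.53% higher groups without overlap). That count was between 1 and 4 when single animals were left out, and 1 without chow/chow replicate 1, 4 or 5 or high-fat/chow replicate 3. It was 2 without chow/chow replicate 2 or 3 or high-fat/chow replicate 2.

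On the high-fat diet 0% of all genes passed. Here 22 of the 33 members lay below 0 (66.7%, against 49.6%), and the median was -0.078, against 0.0011 over all genes. At an unadjusted p under 0.05 there were 6 members (18.2%, against 13.3%), all below 0 (6.63% of all genes): Kdm2a, Hdac2, Eed, Suv39h1, Hdac5 and Kat2a. The further Eed probe set gave 0.07 (SE 0.075) in this comparison. Kdm2a and Hdac2 (6.06% of members) had groups without overlap, against 2.34% of all genes in the lower direction. The deposited array medians differed between these groups, from 55.02 to 66.45 in chow/high-fat and from 67.52 to 73.97 in high-fat/high-fat, without overlap. With arrays centred on their medians in place of quantile normalization the member median was -0.019, 18 of 33 lay below 0, and 1 had an unadjusted p under 0.05. With the array median as a covariate that count was also 1, and it was 3 both without chow/high-fat replicate 3 and without the 2 arrays of lowest median, chow/high-fat replicates 4 and 5. Of the markers of other cell types, all 6 tested endothelial ones were higher in this comparison (median 0.14), with summed intensities from 1670 to 2180 in chow/high-fat and from 2100 to 2250 in high-fat/high-fat. Of the fat-cell markers 6 of 7 were lower (median -0.11, down to -0.49), with overlapping sums of 1470 to 1970 and 1300 to 2130, and Lep was below the filter. Of the proliferation markers 7 of 8 were higher (median 0.04). No marker of these 3 lists passed an adjusted p of 0.05 by limma. Their part in the member values was not tested.

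**Figure D3:**
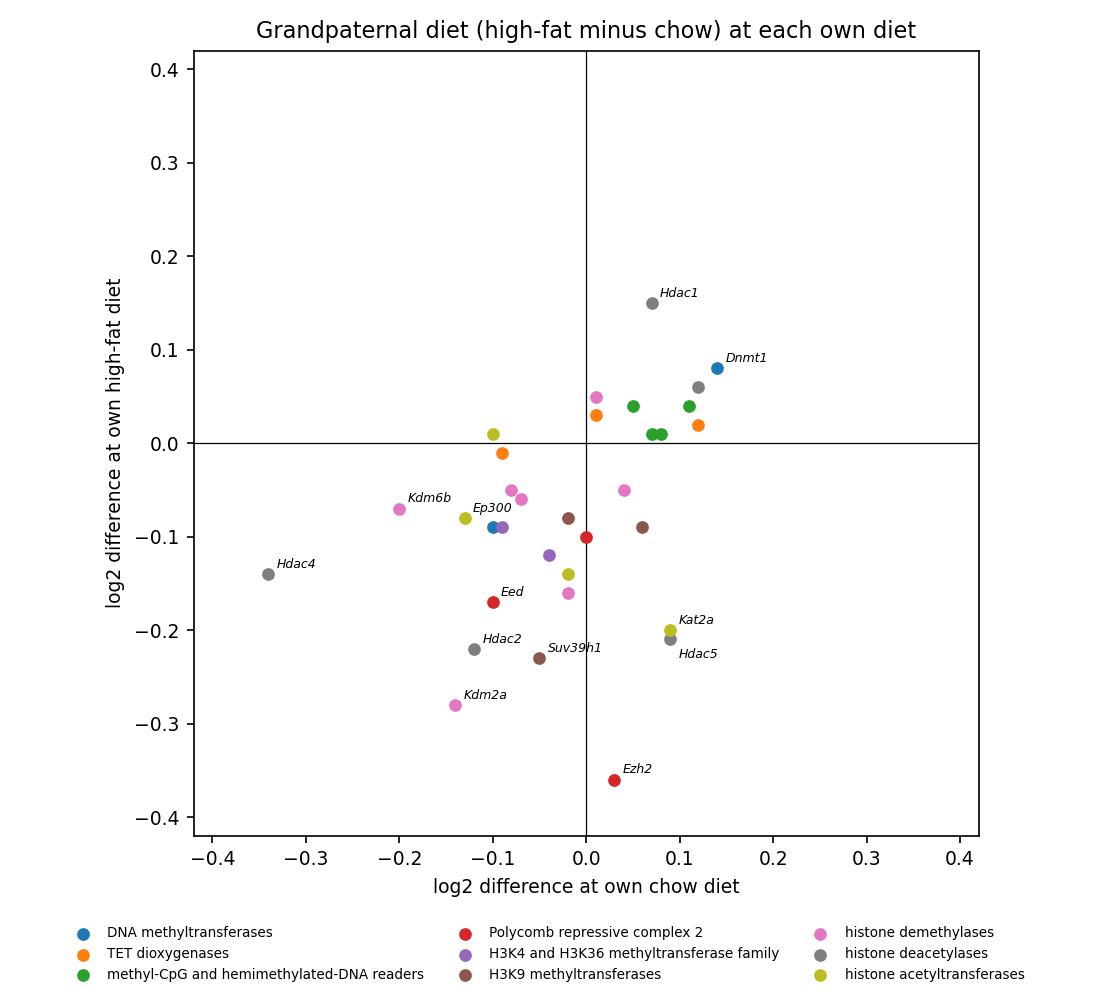
For each of the 33 tested members, the log2 difference of the high-fat minus the chow lineage among chow-fed females (horizontal) is plotted against that among high-fat-fed females (vertical), coloured by class. Kdm2a (-0.14 and -0.28) and Hdac2 (-0.12 and -0.22) lie below 0 on both axes, and Kat2a (0.09 and -0.20) and Hdac5 (0.09 and -0.21) lie on opposite sides.

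Whether the difference between lineages depended on the diet of the female was tested as an interaction, the difference on the high-fat diet minus that on chow. It gave 0 calls among the members and 0% over all genes. At an unadjusted p under 0.05 there were 2 members, Kat2a and Hdac5, against 6.83% of all genes, and the member median was -0.063 against 0.0042. With arrays centred on their medians the member median was 0.016 and the count 0. Leaving out single animals gave counts from 1 to 3. Kat2a, the GCN5 acetyltransferase of the SAGA and ATAC complexes, read 7.26, 7.27, 7.47, 7.14 and 7.19 in chow/chow and 7.35, 7.39, 7.33, 7.33 and 7.49 in chow/high-fat females. It read 7.42, 7.40, 7.26 and 7.33 in high-fat/chow and 7.34, 7.27, 7.09 and 7.02 in high-fat/high-fat females. The lowest 2 readings of all animals were in the high-fat/high-fat group, and each pair of groups overlapped. Its interaction was -0.29 (SE 0.11, 95% confidence interval -0.51 to -0.06, adjusted p = 0.649 by limma). That of Hdac5 was -0.29 (SE 0.13, adjusted p = 0.7). In the table as deposited the Hdac5 interaction was 0.02 and that of Kat2a -0.02, with the median of all genes at 0.24.

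**Figure D4:**
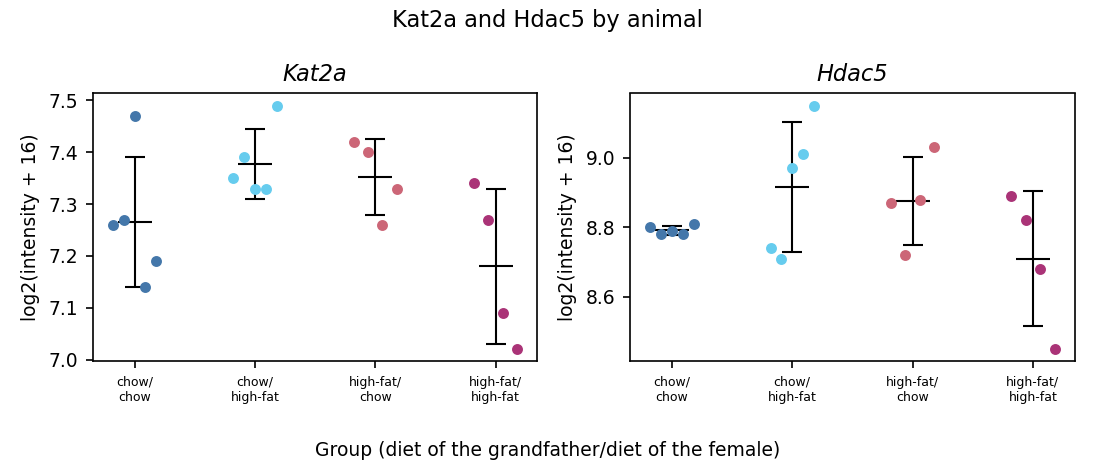
Log2(intensity + 16) of Kat2a and Hdac5 in each of 18 animals by group, with bars at the mean and 1 SD. On chow the high-fat lineage has the higher mean and on the high-fat diet the lower one, and the chow/chow values of Hdac5 span only 8.78 to 8.81.

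The diet of the females themselves, averaged over lineages, gave 0 calls among the members, against 0.0158% of all genes. The member differences lay between -0.11 and 0.11, with a median of 0.0011, and 0 members had an unadjusted p under 0.05, against 6.73% of all genes. The TET dioxygenases lay above 0 (0.01 to 0.10, SE 0.072 to 0.08). The 5 deacetylases lay at or below 0 (down to -0.05, SE 0.049, for Hdac2). By lineage the deacetylases were mixed, with 1 higher in the chow lineage and 2 higher in the high-fat lineage. In the chow lineage 0 members had an unadjusted p under 0.05 (4.8% of all genes). In the high-fat lineage there was 1, Kat2a at -0.17 (SE 0.08, adjusted p = 0.522 by limma; 9.25% of all genes). Kdm6b was the member whose groups did not overlap there: 8.47 to 8.70 on chow and 8.75 to 8.84 on the high-fat diet, a difference of 0.17 (SE 0.092, adjusted p = 0.603). Groups without overlap in that direction were found for 3.03% of members and 2.06% of all genes. In the comparison averaged over lineages all 10 fibroblast and matrix markers were lower (median -0.23), as were 10 of 11 leukocyte markers (median -0.2), with 0 of them past an adjusted p of 0.05.

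Other chromatin genes were taken from a list of 90, such as arginine methyltransferases, sirtuins and Polycomb repressive complex 1 subunits, of which 72 were tested. None passed an adjusted p of 0.05 in any comparison. For the averaged grandpaternal diet 43 were lower (59.7%, against 51.2% of all genes) and 29 higher, with a median of -0.035. At an unadjusted p under 0.05 there were 9 lower (12.5%, against 6.89%) and 5 higher (6.94%, against 7.75%). The smallest p belonged to Prmt1, the main asymmetric arginine methyltransferase, at 0.15 (SE 0.045, adjusted p = 0.125 by limma). It was followed by Mbd6, at -0.13 (SE 0.045, adjusted p = 0.178), and Rbbp5, a core subunit of the H3K4 methyltransferase complexes, at -0.15 (SE 0.055, adjusted p = 0.195). For the own diet they were Bmi1, of Polycomb repressive complex 1, at -0.15 (SE 0.049, adjusted p = 0.576), Ash2l at -0.12 (SE 0.047, adjusted p = 0.696) and Kdm2b at 0.14 (SE 0.07, adjusted p = 0.771). Kdm2b, the paralogue of Kdm2a, had a grandpaternal difference of 0.08 (SE 0.07).

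Across the 33 members the standard deviation within groups ran from 0.075 to 0.3, with a median of 0.11, against 0.14 for all genes tested.

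**Figure D5:**
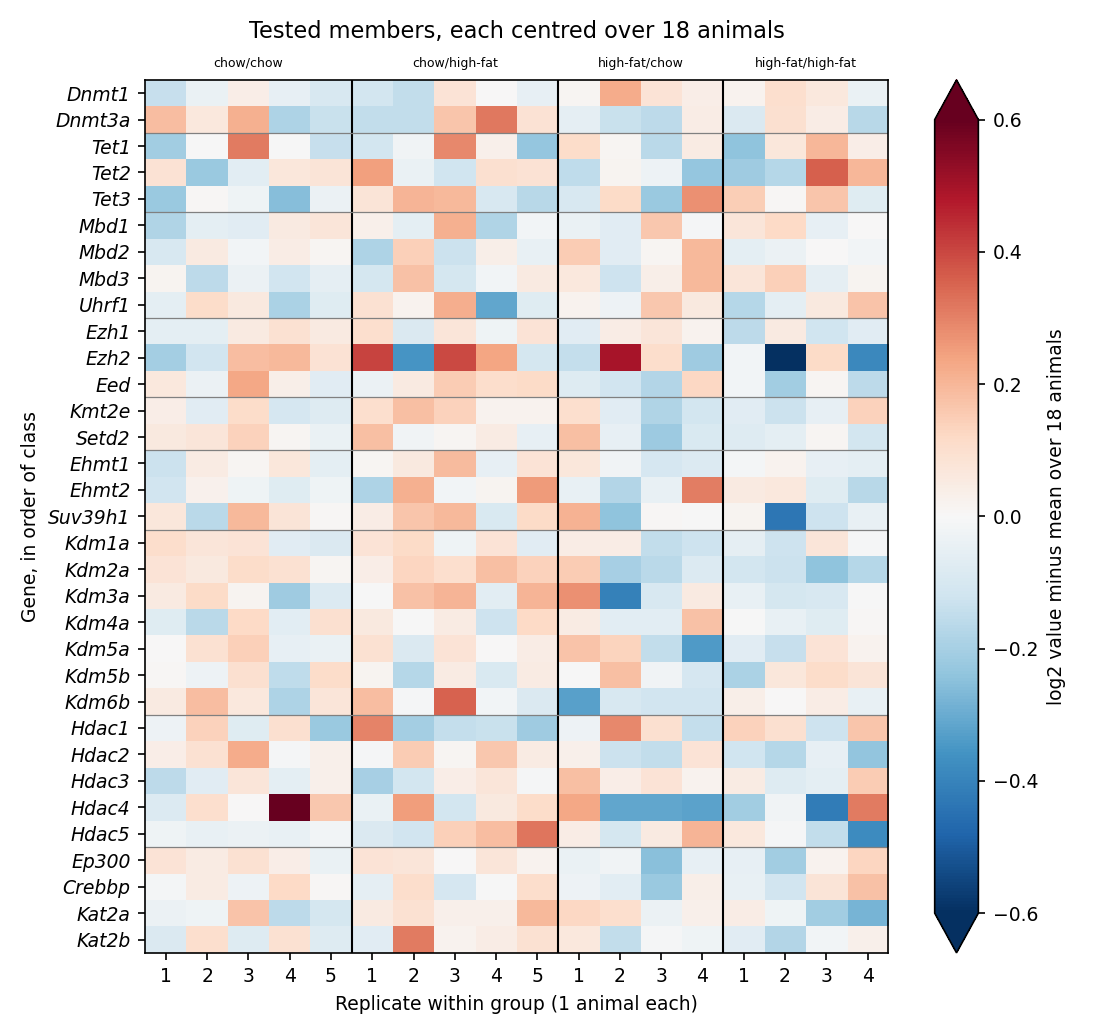
Each of the 33 tested members (vertical, by class) in each of 18 animals (horizontal, by group), as log2 value minus the mean of that gene over all animals, with the colour scale ending at 0.6 on either side. Kdm2a is below its mean in 7 of the 8 high-fat-lineage animals, and Ezh2 and Hdac4 show the widest spread.

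The tissue label was checked against markers of fast muscle: 7 of 11 were measured and all were high in every animal, such as Acta1 (8810 to 9920, normalized intensity), Ckm (7650 to 8810) and Actn3 (7490 to 8510). Their summed intensity ran from 48800 to 53100 over the 18 arrays, with overlapping ranges in the 4 groups. In whole muscle, fewer cells of a type and less RNA per cell cannot be told apart. No pair of arrays within a group was a copy of another: over 32 pairs the smallest standard deviation of the difference was 0.196 log2. The deposited array medians spanned 55.02 to 73.97, and how precise a value is depends on how many arrays there were.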

How the data were processed

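RNA of the extensor digitorum longus of 18 females was hybridised to 1-colour whole-transcript arrays, with 200 ng of RNA as input, per the labels' protocols. The deposited table holds a linear intensity per array and probe set (20917 probe sets). The authors made it with Affymetrix Expression Console and PLIER, per the submitters' processing notes, and versions and settings are not given in the sources used here. Genes were named from the platform's probe table, where 18197 probe sets carried 1 symbol, 960 several and 1760 none. The RefSeq gene table (GRCr8) left all of them as they were.

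The scale used is log2(intensity + 16), which understates differences of low signals. They were quantile normalized, because the array medians spanned 0.427 log2, more than the 0.1 allowed. The probe set of highest mean was kept for each gene. Genes above the 25th percentile of the mean (5.28 log2) were tested. A model with 1 mean per group (4 groups, 18 arrays) was fitted with limma 3.58.1 in R 4.3.3 (lmFit and eBayes, two-sided, 14 residual degrees of freedom before moderation), with Benjamini-Hochberg adjustment over 12642 genes within each of 7 comparisons and a threshold of 0.05. The averages over diets weight both diets equally. The analysis was tested on simulated data with known changes and independent noise. A grandpaternal change of 0.25 log2 was recovered in 47.8% of changed genes for the averaged diets. On chow it was recovered in 7.46% and on the high-fat diet in 13.4%. A count of 0 therefore does not show that differences of this size were absent.

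Values in every animal are given for the 2 members of smallest p in each class for the averaged grandpaternal diet and for each member with an unadjusted p under 0.05 in a grandpaternal comparison. Of the other chromatin genes, those past the threshold were to be named or, with none, the 3 of smallest p in each averaged comparison. The members and lists were chosen with earlier results of these data known. Alternatives changed the normalization, offset, filter, probe-set choice, variance model, array weights, samples in the fit, presumed plate column, array median and relatedness, and left out each animal in turn. Leaving out the 2 arrays of lowest median was chosen after seeing the data.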

Additional observations from a re-analysis of the deposited data

Results flagged for a closer look

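Within groups, 1 animal stood far from the others of its group for 5 of the 136 combinations of a measured member and a group that were checked by Dixon's test at the 95% level. Chance alone marks about 1 in 20. Hdac4 read 9.29 in high-fat/chow replicate 1, against 8.74 to 8.75 in the other animals of the group. Kdm6b, in the same animal, read 8.47, against 8.68 to 8.70. Ep300 read 9.10 in high-fat/chow replicate 3, against 9.30 to 9.33. Hdac1 read 7.46 in chow/high-fat replicate 1, against 6.95 to 7.03. Kdm5b read 7.55 in high-fat/high-fat replicate 1, against 7.81 to 7.85. The causes were not tested.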

How the results depend on the processing

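The count of 0 members past the threshold held under every alternative in the comparison on chow, the own-diet comparisons and the interaction. For the averaged grandpaternal diet it was 1 (Kdm2a) with array weights, an offset of 64, only genes above the 50th percentile and every probe set tested. It ranged from 0 to 1 when single animals were left out, with 1 without high-fat/chow replicate 1. Over all genes that comparison gave 25 calls, 38 with an offset of 64, 41 at the 50th percentile, 61 with all probe sets, 43 with a trended and robust variance, 252 with array weights, 303 without that animal, and between 0 and 303 when single animals were left out. It gave 0 with the presumed plate column as a block, the array median as a covariate, arrays centred on their medians, the table as deposited, an offset of 1, neighbouring animal numbers as a random block, and the 2 arrays of lowest median left out. On the high-fat diet the table as deposited gave 3 members (Dnmt1, Hdac3 and Kdm5b, all above 0), with 1686 of 1689 called genes higher. All genes were then shifted by 0.18, by 0.059 on average, by -0.056 on chow, by -0.13 and 0.11 for own diet (chow lineage, then high-fat lineage), and by 0.24 in the interaction. The member medians in that table were 0.03 on average, -0.076 on chow, 0.15 on the high-fat diet, -0.12 and 0.13 for own diet (in the same order), and 0.22 in the interaction. With arrays centred on their medians they were -0.019 on the high-fat diet, 0.042 for the own diet in the high-fat lineage and 0.016 in the interaction. Centring left 21 of 33 members below 0 on average (23 with quantile normalization), 18 on the high-fat diet (22) and 11 in the interaction (22). Among the single-gene differences recomputed under the alternatives, signs turned in the table as deposited alone: on average Ehmt1 0.03, Hdac5 0.03, Kat2a 0.03, Kmt2e 0.01 and Tet2 0.03, on the high-fat diet Eed 0.08, Hdac2 0.02, Hdac5 0.04 and Kat2a 0.02, and in the interaction Hdac5 0.02. The cause was not tested beyond the shift of all genes.

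No paired analysis was run, because the sample titles give each animal its own number and the groups share none. In the chow lineage each chow/chow animal had a chow/high-fat animal of neighbouring number. In the high-fat lineage only some chow-fed animals had such a neighbour on the high-fat diet. Neighbouring numbers, which the labels do not tie to litters, were tried as a random block (correlation 0.13): 0 members passed, and the calls over all genes went from 25 to 0 for the averaged grandpaternal diet and from 2 to 14 for the averaged own diet. The array medians differ between chow/high-fat and high-fat/high-fat, so differences on the high-fat diet depend on the scaling. Signal over background is not given in the sources used here, and Uhrf1 and Dnmt3b, of low signal, are the members that it limits most.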
